A study of Mus musculus with 18 samples.

Results

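The Myc family and the Max network were examined in small intestinal organoids of the mouse: the paralogs Myc, Mycn and Mycl, their shared partner Max, and the genes Mnt, Mxd1, Mxd3, Mxd4 and Mga, whose proteins also bind Max. These 9 genes were found by symbol among the 55487 genes of the counts table, and all 9 passed the filter on low counts. They were picked with each agonist's effect and the difference between both effects in view, in which Mycn stood out, so their values in those comparisons are a description. No p is attached to them, and the counts of calls given further on support nothing.

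RNA was measured by sequencing in 18 samples of wild-type organoids, which are 3-dimensional cultures grown from crypts and, here, from female C57BL/6 mice. An age is given for the study's mice in general and not for these donors. After 4 passages, organoids were kept for 4 days with HCl vehicle (4 samples), 1 μM norepinephrine (5 samples), DMSO vehicle (4 samples) or 1 μM UK14,304 (5 samples). Norepinephrine stimulates α- and β-adrenergic receptors, UK14,304 is selective for α2 receptors, and the effect of either was taken against its matched vehicle. The sample titles carry the numbers m1 to m5 and do not say what m stands for. They were taken here as the mice and are called sources below. The number m5 has agonist samples only. The culture is grown from epithelial crypts, without the nerves and connective tissue of the gut. The 5 epithelial markers examined (Epcam, Cdh1, Krt8, Krt18 and Vil1) summed to between 5457 and 6046 CPM (counts scaled to library size) in every sample, whereas the 5 markers of fibroblasts and smooth muscle summed to at most 0.562 CPM. The 5 leukocyte markers summed to between 1.30 and 2.27 CPM, with 2 of them, Adgre1 among these, at 0 in every sample. Total counts were 21.87 to 27.85 M per sample. In 7 libraries a ribosomal RNA gene took over 1% of the counts, unevenly over the groups. These were m1 to m3 with DMSO vehicle (2.41, 2.61 and 3.06%) and m1 with UK14,304 (1.97%). The others were m4 with HCl vehicle, and m4 and m5 with norepinephrine.

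Myc proteins act as dimers with Max, which bind short DNA elements called E-boxes and raise transcription of genes for ribosome building, metabolism and cell division. The Mxd proteins and Mnt compete for Max and recruit repressors to the same elements, and Mga joins Max to the Polycomb complex PRC1.6. In the intestine, Myc is a Wnt target of the proliferating crypt. Mycn is best known from the nervous system and from embryonic tissue, and Mxd1 for its expression in cells that leave the cell cycle.

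The E-box is shown in the promoters that hold it, since it is the element through which the network's own proteins bind. The RefSeq promoters (GRCm38.p6, 250 bases before to 50 after the start) include 8 of the 9 genes. The exception is Myc. The letters CACGTG, which read the same on both strands, occurred once each in those of Max, Mnt and Mxd4, and in 7.15% of all 32851 promoters. They are in capitals below, 5′ to 3′ on the gene's strand. The Max sequence is chr12:76962239-76962278, the Mnt sequence is chr11:74830774-74830833, and the Mxd4 sequence is chr5:34187897-34187956.
Max: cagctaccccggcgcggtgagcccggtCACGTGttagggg
Mnt: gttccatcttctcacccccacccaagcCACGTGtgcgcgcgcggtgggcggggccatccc
Mxd4: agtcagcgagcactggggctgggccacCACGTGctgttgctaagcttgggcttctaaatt

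The promoter of Mycn is shown because Mycn is the gene that stood out. It held no CACGTG, and it held 2 copies of TTTGGCGC, the core to which E2F factors of the cell cycle bind. This motif was chosen after the Mycn promoter had been read. Searched on both strands, it occurred in 0.514% of all promoters. The copies, in capitals, start 183 and 168 bases before the RefSeq start, in chr12:12941970-12942046 on the minus strand.
Mycn: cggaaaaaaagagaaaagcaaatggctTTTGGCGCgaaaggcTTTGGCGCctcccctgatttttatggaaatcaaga

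Myc was the most abundant of these transcripts. Per kilobase of exon, its level ranged from 57.4 to 64.9 CPM over the 18 samples, with a median 16.7 times that of Mycn, and its mean level was above that of 95.2% of the 15247 genes tested. Max followed with 20.4 to 24.6 CPM per kilobase. Mycl (13.7 to 18.9), Mxd1 (7.88 to 20.4) and Mnt (8.97 to 11.1) came next on this scale, and the ranges of Mycl and Mxd1 and those of Mxd1 and Mnt overlapped. Mga (6.17 to 8.45) and Mxd4 (5.43 to 7.02) also overlapped. Mycn ranged from 2.73 to 4.28 CPM per kilobase, and Mxd3 was lowest with 0.926 to 1.58. The ranges of Mycn and Mxd3 overlapped with no neighbour's. The plot of levels by gene shows this order in all 4 groups.

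**Figure D1:**
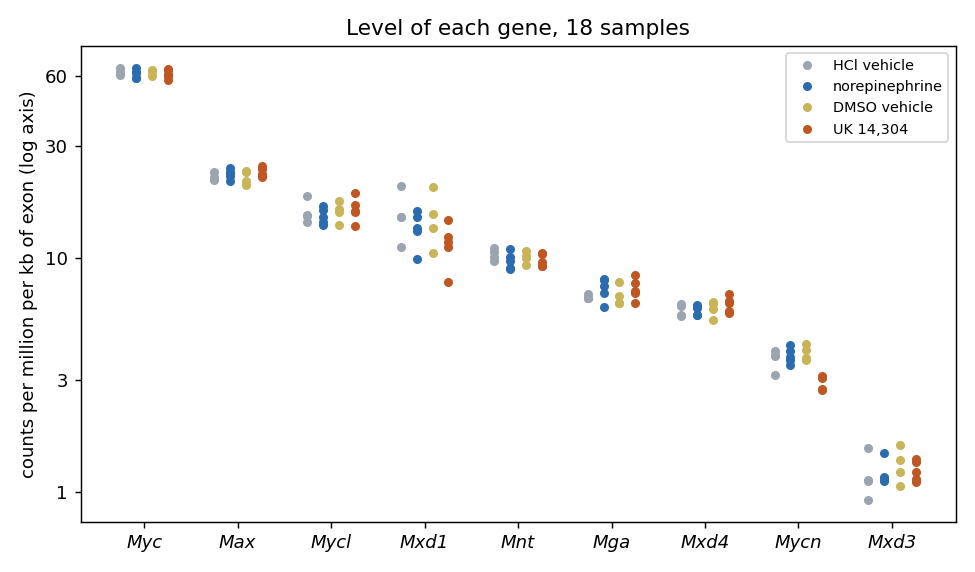
Level of the 9 genes in CPM per kilobase of exon, on a log axis, with 1 point per sample coloured by group. Myc lies between 57.4 and 64.9 in every sample, and the 5 UK14,304 samples of Mycn lie below its other 13.

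Myc was also the steadiest of the 9 genes. Its coefficient of variation over all 18 samples was 3.51%, against 5.01% for Max, 13.4% for Mycn, 14.5% for Mxd3 and 23.6% for Mxd1. Mxd3 was counted only 48 to 97 times per library, so counting error adds to its spread. Genes on the opposite strand shared 4.43% of the exon bases of Mxd3 (Prelid1) and 6.06% of those of Mxd4 (Gm42846), and the counting did not use strand.

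Mycn was lower with UK14,304 than with DMSO vehicle, and not with norepinephrine. The Mycn gene (ENSMUSG00000037169, chr12:12936093-12941914, minus strand, GRCm38) encodes N-Myc. With DMSO vehicle its level was 14.1, 12.1, 12.3 and 13.3 CPM in m1 to m4, and with UK14,304 it was 10.2, 10.1, 9.09, 10.3 and 8.99 CPM in m1 to m5. All 5 UK14,304 samples lay below all 4 DMSO samples, and also below the other 9 samples, as in 0.125% of all tested genes. With HCl vehicle the level was 12.5, 12.7, 10.5 and 13.2 CPM in m1 to m4, and with norepinephrine it was 13.2, 12.4, 11.5, 14.0 and 12.1 CPM in m1 to m5. These groups overlapped. Means were 13.0 ± 0.917 CPM (SD, n = 4) with DMSO and 9.74 ± 0.647 CPM (SD, n = 5) with UK14,304. They were 12.2 ± 1.20 CPM (SD, n = 4) with HCl and 12.6 ± 0.958 CPM (SD, n = 5) with norepinephrine.

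The fitted log2 fold change of Mycn was -0.41 ± 0.08 (SE) with UK14,304, which is 0.752 of the DMSO level, and 0.05 ± 0.08 with norepinephrine. The difference between both effects was -0.46 ± 0.11 (SE). Within the 4 m numbers that have both samples, the log2 difference of Mycn from vehicle ranged from -0.46 to -0.26 with UK14,304 and from -0.02 to 0.13 with norepinephrine. These effects were taken from 208 to 365 counts of Mycn per library. Over all settings examined the UK14,304 value stayed between -0.44 and -0.34. In bulk RNA, fewer cells of a type and less RNA per cell cannot be told apart. Summed Paneth cell markers ranged from 2219 to 3422 CPM with DMSO and from 1943 to 2878 CPM with UK14,304, and stem cell markers from 2977 to 5114 and from 3616 to 5563 CPM. Over the 18 samples, which share sources, the correlation of Mycn was 0.132 with the Paneth cell sum and -0.407 with the stem cell sum. It was -0.518 with the tuft, 0.506 with the enteroendocrine, 0.257 with the enterocyte and 0.170 with the goblet cell sum. The part of cell composition in the Mycn values was not tested.

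**Figure D2:**
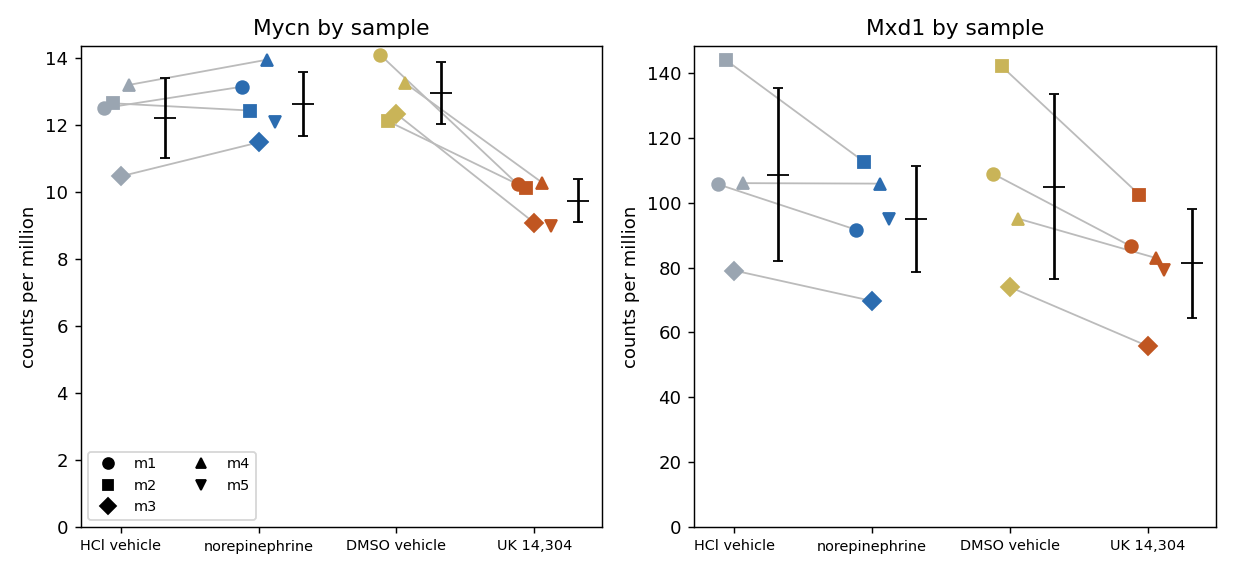
CPM of Mycn and Mxd1 in each sample, with symbols for the m number, grey lines joining the agonist and vehicle samples of one m number, and bars for mean ± SD of 4 vehicle or 5 agonist samples. Mycn with UK14,304 lies between 8.99 and 10.3, below every other sample, and Mxd1 is lower at the UK14,304 end of all 4 lines while m2 is highest and m3 lowest in each group.

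Mxd1 was lower with both agonists in each m number, in m4 with norepinephrine by a margin smaller than the rounding. It also differed between the sources. It encodes Mad1, a Max-binding repressor. With DMSO vehicle it was at 109, 142, 74.0 and 95.1 CPM in m1 to m4. With UK14,304 it was at 86.5, 102.4, 55.8, 82.9 and 79.1 CPM in m1 to m5. Each value was below that of the same m number with DMSO, but the groups overlapped. With HCl vehicle Mxd1 was at 106, 144, 79.1 and 106 CPM in m1 to m4, and with norepinephrine at 91.7, 113, 69.7, 106 and 95.1 CPM in m1 to m5. Within m numbers, the log2 difference from vehicle ranged from -0.47 to -0.20 with UK14,304 and from -0.35 to -0.00 with norepinephrine, where m4 gave the smallest. The log2 fold change was -0.37 ± 0.21 (SE) with UK14,304 and -0.19 ± 0.21 with norepinephrine. With the m number as a block, the standard errors shrank and the values were -0.36 ± 0.06 and -0.18 ± 0.06. Mxd1 was lower in 4 of 4 m numbers with both agonists, and so were 15.5% of all tested genes with UK14,304 and 8.26% with norepinephrine.

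The counts of calls depended on the block. In edgeR's quasi-likelihood test with Benjamini-Hochberg adjustment, called at an adjusted p under 0.05, 0 of the 9 genes were called with norepinephrine, where 0% of all genes were, and 0 of 9 with UK14,304, where 0.0394% were. At an unadjusted p under 0.05 these were 0 of 9 (6.18% of all genes) and 1 of 9, which was Mycn (11.2%). DESeq2 called 0 and 1 of 9, the latter again Mycn (0.302% of all genes). With the replicate block, edgeR called 0 with norepinephrine, where 0.105% of all genes were called, and 2 with UK14,304, Mycn and Mxd1, where 1.22% were. Without m3 this count was 0, where 23 of all genes were called. Without m1 it was 1 (Mxd1), where 98 of all genes were, and without m2 it was 1 (Mycn), where 24 were. Without m4, 2 genes were called with norepinephrine, Mxd1 and Mga, where 15.1% of all genes were. For the difference between both effects, edgeR and DESeq2 called 0 of the 9, where 0% of all genes were called, and Mycn alone had an unadjusted p under 0.05 in both (1.51% of all genes in edgeR). Nothing is read from these counts, since the genes were chosen on these comparisons. In 1 of 9, Mycn, all UK14,304 samples lay below all DMSO samples, and so they did in 1.78% of all tested genes.

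Myc, the paralog that is abundant here, had group means between 166 and 169 CPM. It was at 168, 162, 173 and 171 CPM in m1 to m4 with DMSO vehicle and at 171, 165, 174, 162 and 156 CPM in m1 to m5 with UK14,304. With HCl vehicle it was at 167, 164, 176 and 169 CPM, and with norepinephrine at 169, 159, 168, 175 and 159 CPM. The groups overlapped, and m2 was lowest in both vehicle groups. The log2 fold change was -0.02 ± 0.04 (SE) with either agonist, and the difference between both effects was 0.00 ± 0.06.

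Mycl, which encodes L-Myc, had a log2 fold change of -0.06 ± 0.09 with norepinephrine and of 0.04 ± 0.09 with UK14,304. Max, the obligate partner of Myc, had 0.04 ± 0.05 and 0.07 ± 0.05. Among the genes for repressors, Mnt had -0.09 ± 0.06 and -0.04 ± 0.06, Mxd3 0.03 ± 0.15 and -0.08 ± 0.15, and Mxd4 0.01 ± 0.06 and 0.06 ± 0.06. None of these 5 genes moved in a single direction in all 4 m numbers under either agonist. Mga, the Max partner in PRC1.6, had 0.12 ± 0.08 with norepinephrine and 0.10 ± 0.08 with UK14,304. It was higher with norepinephrine in 3 of 4 m numbers and with UK14,304 in 2 of 4.

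**Figure D3:**
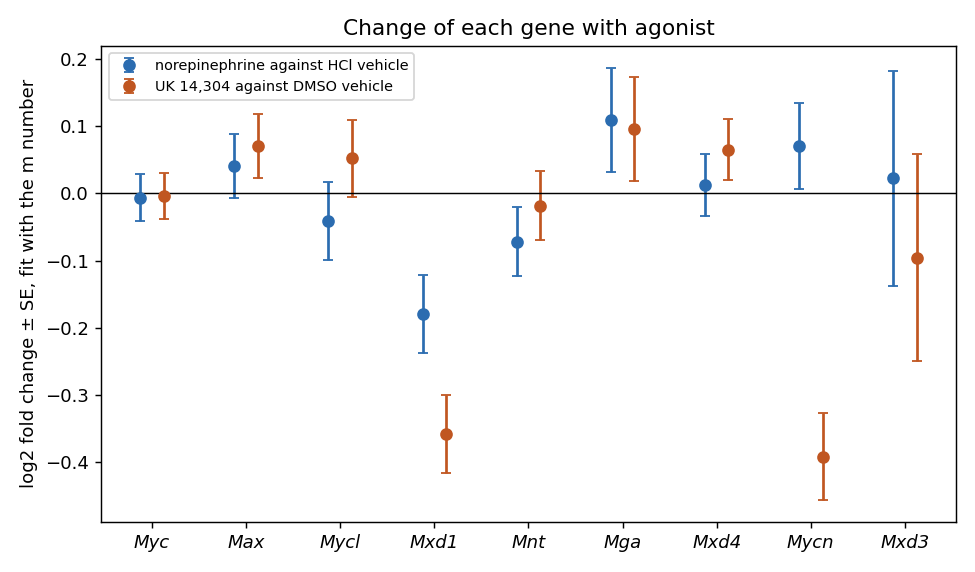
Log2 fold change ± SE of each gene with norepinephrine against HCl vehicle and with UK14,304 against DMSO vehicle, from the fit with the m number as a block. Mycn (-0.39) and Mxd1 (-0.36) with UK14,304 lie lowest, and Myc lies between -0.01 and 0.00 with both agonists.

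The choice of genes did not rest on the comparison of the vehicles, but the vehicle samples entered the effects it did rest on. The test of the vehicles is therefore not independent of the choice. Between HCl and DMSO vehicle, edgeR and DESeq2 called 0 of the 9 genes, where 0% of all genes were called. In edgeR 0 of the 9 also had an unadjusted p under 0.05, which 1.27% of all genes had.

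Differences between the sources were called in 3 of the 9 genes, which were Mxd1, Mycl and Mxd4. In edgeR's test of the m-number terms, with the group in the model, 13.8% of all 15247 genes were called. Mxd1 had an adjusted p of 1.86e-07, Mycl of 0.00834 and Mxd4 of 0.0359. Mxd1 averaged 125 CPM over the 4 samples of m2 and 69.6 CPM over those of m3, and m2 was highest and m3 lowest in each of the 4 groups. Mycl showed the opposite order for these sources, with 58.0 CPM in m2 and 72.1 CPM in m3. In m3 it lay between 67.0 and 76.3 CPM in every group, and in m2 between 55.6 and 63.1 CPM. Mxd4 averaged 48.3 CPM in m2 and 55.1 CPM in m1. The other 6 genes did not pass, with adjusted p of 0.0996 for Mycn, 0.146 for Mnt, 0.204 for Myc, 0.499 for Mga, 0.542 for Max and 0.913 for Mxd3.

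Epithelial cell markers differed between the same sources. Summed stem cell markers (Lgr5, Olfm4, Ascl2 and Smoc2, of which Olfm4 was most of the sum) averaged 3359 CPM in m2 and 5020 CPM in m3. Over the 18 samples, the correlation of Mxd1 with this sum on the log2 scale was -0.937, and that of Mycl was 0.613. Goblet cell markers averaged 1152 CPM in m2 and 868 CPM in m3, and their correlation with Mxd1 was 0.738. Enteroendocrine markers averaged 442 CPM in m2 and 326 CPM in m3, with correlations of 0.864 with Mxd1 and -0.753 with Mycl. Paneth cell markers averaged 2102 CPM in m2 and 3053 CPM in m3, with correlations of -0.365 with Mxd1 and 0.636 with Mycl. Enterocyte markers averaged 12359 CPM in m2 and 11554 CPM in m3, with correlations of 0.352 and -0.734. Samples of one m number share their source, so these are not 18 independent points. The part of cell composition in the values of Mxd1 and Mycl was not tested.

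The correlation between Mycl and Mxd1 over the 18 samples was -0.728. After the trend of each library on the GC content of transcripts had been removed, a setting added after the data were seen, it was -0.938. Myc and Mycl had correlations of 0.749 and 0.768 in these settings, and Mxd4 and Mycl of 0.712 and 0.694. Removing the group and the m number left a correlation of -0.00 between Mycl and Mxd1 and of 0.851 between Myc and Mycl. It also left 0.915 between Mycl and Mnt, 0.876 between Max and Mga and -0.784 between Mnt and Mga. The GC trend was not removed in that setting. These are descriptions over samples that share sources and library properties.

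**Figure D4:**
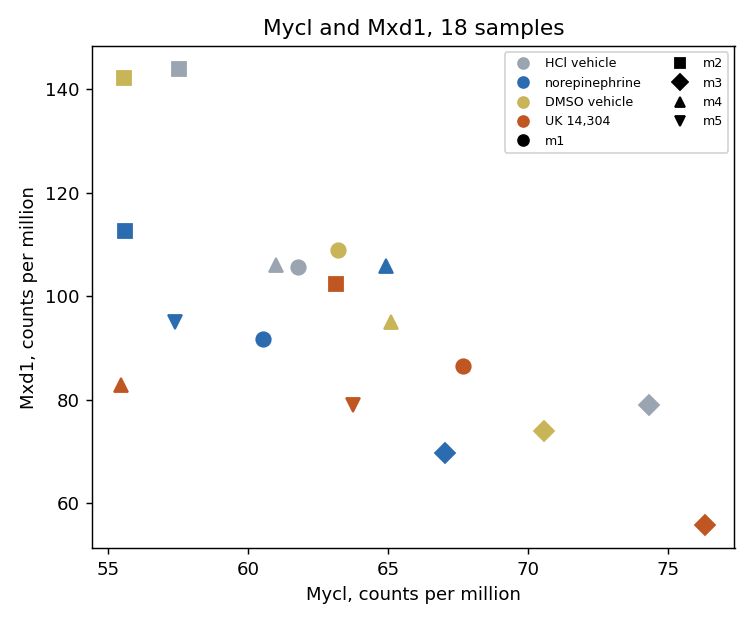
CPM of Mxd1 against Mycl in the 18 samples, coloured by group, with a symbol for each m number. The m3 samples lie at the lower right, at 55.8 to 79.1 CPM of Mxd1, and the m2 samples at the upper left, at 102.4 to 144 CPM.

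Mga varied with the trend of the libraries on transcript GC content. The GC slope, which is the change of a library's log2 CPM per 10 points of transcript GC content against the mean of all libraries, ranged from -0.22 in m4 with UK14,304 to 0.19 in m4 with norepinephrine. These were also the samples with the highest and the lowest Mga, 130 and 94.7 CPM. The correlation of Mga with the GC slope over the 18 samples was -0.940. The transcripts of Mga have 42.2% GC, the lowest of the 9 genes. Mnt, with 59.5% GC, had a correlation of 0.769 with the slope, and Max, with 49.6%, of -0.715. That of Mycn was 0.398. The slope was between 0.04 and 0.07 in all 4 HCl libraries and below 0 in 4 of the 5 norepinephrine libraries. With DMSO vehicle the slope was 0.10, 0.12, -0.04 and 0.06 in m1 to m4. With UK14,304 the slope was 0.06, -0.02, -0.09, -0.22 and -0.00 in m1 to m5. It is computed from the same counts, so a library property and a change in expression cannot be told apart. With the GC trend removed and the block, Mga had log2 fold changes of 0.04 and 0.02 with norepinephrine and UK14,304, against 0.11 and 0.10 with the block alone. Mycn had -0.34 and Mxd1 -0.34 with UK14,304 in that fit.

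**Figure D5:**
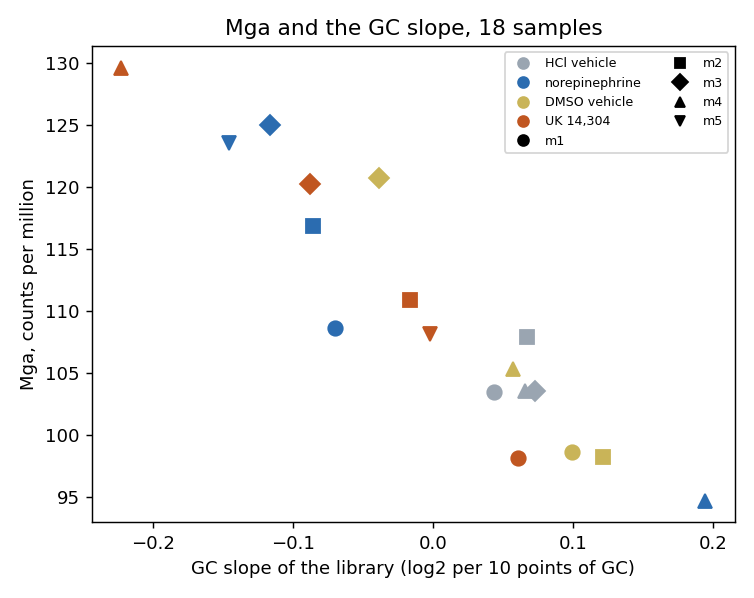
CPM of Mga against the GC slope of the library (log2 per 10 points of GC) in the 18 samples, coloured by group, with a symbol for each m number. Mga goes from 130 CPM at a slope of -0.22 to 94.7 CPM at 0.19.

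Of the genes around the Myc network, Cdkn1a, Ndrg1 and Ldha were lower with UK14,304 in the fit with the block, and the number called varied with the setting. The lists held the other Max and Mlx network genes, Myc protein turnover, cofactors, Mga partners, Myc targets, genes that Myc represses and proliferation genes. They were chosen with earlier results of these data known, so calls and p-values of their genes are a description. Without the block, edgeR called 0 of their 85 genes with norepinephrine (0% of all genes) and 0 with UK14,304 (0.0394% of all genes), and DESeq2 called 0 with norepinephrine (0%) and 0 with UK14,304 (0.302%). At an unadjusted p under 0.05 edgeR had 5 with norepinephrine and 19 with UK14,304, where 6.18% and 11.2% of all genes had one. With the block, 0 were called with norepinephrine (0.105% of all genes) and 3 with UK14,304, all lower (1.22% of all genes). With UK14,304 and the block, 0 of the 85 were called without m2 (24 of all genes) or without m3 (23 of all genes). The split by ribosomal RNA share gave 2, both lower (78 of all genes). Some other settings with the block gave more calls with UK14,304. These were 5 higher and 4 lower in the fit of the compared groups (525 of all genes), 5 higher and 5 lower with the GC trend removed (626 of all genes), and 4 lower in DESeq2 (272 of all genes). Without m4 there were 3 higher and 6 lower with UK14,304, and 13 higher and 9 lower with norepinephrine, where 15.1% of all genes were called. The calls of Cdkn1a, Ndrg1 and Ldha were lost without m2 and without m3, where their log2 fold changes were -0.29 and -0.27, -0.22 and -0.21, and -0.21 and -0.20. That of Ldha was also lost with the split by ribosomal RNA share, at -0.20 and an adjusted p in edgeR of 0.0985.

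Of the 5 genes known to be repressed by Myc, 2 were called lower with UK14,304 in the fit with the block. In that fit 1.22% of all genes were called. Cdkn1a, which encodes the cell cycle inhibitor p21, was at 244, 286, 220 and 248 CPM in m1 to m4 with DMSO vehicle and at 215, 220, 157, 206 and 200 CPM in m1 to m5 with UK14,304. The UK14,304 samples all lay below the DMSO samples, m2 by a margin smaller than the rounding, as in 1.78% of all tested genes. Its log2 fold change was -0.32 ± 0.05 (SE, adjusted p = 0.00451 in edgeR with the block, 0.346 without). Ndrg1, which is linked to differentiation and to low oxygen, had -0.25 ± 0.04 (adjusted p = 0.00537 in edgeR with the block, 0.346 without). The list's median log2 fold change was -0.20 with UK14,304 and -0.13 with norepinephrine, where all genes had -0.00 and -0.01. Cdkn1c, an inhibitor of cyclin-dependent kinases, was the exception with 0.14 ± 0.14 under UK14,304. Cdkn2b had -0.16 with norepinephrine, and Gadd45a, a stress gene, had -0.05 and -0.08.

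Of the 33 textbook Myc targets, 1 was called lower with UK14,304 with the block, where 1.22% of all genes were called. This was Ldha, lactate dehydrogenase A, with a log2 fold change of -0.23 ± 0.05 (SE, adjusted p = 0.0141 in edgeR with the block, 0.408 without). The 33 targets, Ldha included, lay on both sides of 0, 18 higher and 15 lower with each agonist, with a median of 0.03 with UK14,304 and 0.01 with norepinephrine. Tfrc, the transferrin receptor, had 0.20 ± 0.09 and Eif4e, the cap-binding translation factor, 0.15 ± 0.05 with UK14,304, with adjusted p of 0.440 and 0.381 in edgeR. Shmt2, an enzyme of mitochondrial one-carbon metabolism, had -0.17 with both agonists. Srm, spermidine synthase, had -0.15 with norepinephrine, and Nop58 and Hspe1, for a nucleolar protein and a mitochondrial chaperonin, had 0.16 and 0.15.

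In the other lists 0 genes were called under either agonist in edgeR's fit of the 4 groups, without the block or with only the block added. Mxi1, another Max-binding repressor, had -0.17 ± 0.06 with UK14,304 and -0.08 ± 0.06 with norepinephrine. Mlx, Mlxip and Mlxipl, of the parallel Mlx network that senses glucose, lay between -0.08 and 0.04. Among the 11 genes for turnover of Myc protein, Cip2a, which protects Myc, had 0.19 ± 0.15 with both agonists, and Huwe1 (a ubiquitin ligase) had 0.06 and 0.10 with norepinephrine and UK14,304. Stub1, another ubiquitin ligase, was lowest with -0.10 and -0.11. Aurka had -0.08 with norepinephrine. Of 17 cofactors, Ruvbl2 had -0.11 and -0.10 and the corepressor Sin3b -0.10 and -0.12. With norepinephrine Ruvbl1 and Hdac2 had 0.06 and 0.08, and with UK14,304 Trrap and Ncor1 each had 0.11.

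Of the 9 PRC1.6 partners of Mga, 7 were higher with norepinephrine and 8 with UK14,304, with medians of 0.07 for both. Of all tested genes, 47.6% were higher with norepinephrine and 48.7% with UK14,304. The part of the GC slope in the values of these partners was not tested. Pcgf6 was highest with 0.15 ± 0.07 and 0.18 ± 0.07, followed by E2f6 with 0.09 under norepinephrine and Rybp with 0.09 under UK14,304. Ring1 and L3mbtl2 were lowest, with -0.06 and -0.04 under norepinephrine and 0.00 and -0.02 under UK14,304. Among 6 proliferation genes, Mki67 had 0.18 ± 0.06 and Top2a 0.17 with UK14,304, and Pcna had -0.08. With norepinephrine Ccnb1 and Top2a had 0.13, and Mcm2 and Pcna had -0.05 and -0.04. Cdk1 had -0.02 with UK14,304. The adjusted p of Mki67 in edgeR was 0.346 without the block and 0.0893 with it. With UK14,304, Mki67 and Top2a were called higher in the blocked fit of the compared groups, with the GC trend removed and without m4.

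The genes whose log2 CPM followed Mycn most closely over the 18 samples were Egln1, Gm29668, Gga2, Gm29666 and Zfp46, with correlations from 0.863 for Egln1 to 0.810 for Zfp46. Egln1 encodes the oxygen-sensing prolyl hydroxylase PHD2. It was at 141, 141, 138 and 146 CPM in m1 to m4 with DMSO vehicle and at 131, 132, 111, 136 and 121 CPM in m1 to m5 with UK14,304. All UK14,304 samples lay below all DMSO samples, as in 1.78% of all tested genes. Egln1 was picked for its likeness to Mycn, which has the same separation, so nothing is read from this. The genes most like Myc were Uhrf1, Tubb5, Bmp7, Apex1 and Rcc2, with correlations from 0.913 to 0.844. After removal of group and m number, those most like Mycn were Traf5, Zfp12, 1700056N10Rik, 1700123M08Rik and Fgl1 (0.877 to 0.839), and those most like Myc were Qsox1, Klhl21, Unk, Mcrip2 and Sun2 (0.945 to 0.914). These genes were picked as the highest of 15247, and the samples share sources and library properties.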

How the data were processed

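Libraries were made from poly(A) RNA and sequenced as single reads. The submitters' processing notes name STAR 2.7.3 with GRCm38, SAMtools 1.9 and Subread 1.6.4, while featureCounts 2.0.1 and Ensembl release 102 stand in the deposited table itself. The authors deposited counts per gene, not normalized, of uniquely mapped reads over exons, without use of strand, and with the merged exon length. All columns were matched to samples by name.

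Counts were tested in R 4.3.3 with edgeR 4.0.16 (TMM, filterByExpr, robust quasi-likelihood fit of the 4 groups, 15247 genes, Benjamini-Hochberg over all of them). The methods name DESeq2 but no model formula. Alternatives used DESeq2 1.42.0 or its size factors, other filters, a block for the m number, only the groups compared, removal of the GC trend (lowess, span 0.3), a split by ribosomal RNA share, an adjusted p under 0.01 and leaving out samples or m numbers. Counts were scaled to CPM by TMM-normalized library sizes. Log2 CPM in correlations between genes used a prior count of 2. Deviations from group means correlated in 4 of 4 same-numbered pairs in both comparisons (mean 0.283 for HCl and norepinephrine, 0.351 for DMSO and UK14,304). The m numbers, which come from the titles, were therefore taken to pair the samples in the fits with the block. Fold changes given without mention of the block are from the fit without it. Their standard errors include differences between m numbers.

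The genes and lists were chosen with earlier results of these data known. Named were all 9 genes, list genes called in either fit or among the 2 highest or 2 lowest of their list, and the 5 genes most like Mycn and Myc. Of the list genes, 1 that the rule names is not reported here. Epithelial markers in the text are fixed lists, and other genes were named for context after their values were seen. Other marker lists (leukocytes, endothelium, neurons and glia) summed to at most 3.00 CPM in every sample. Tuft cell markers summed to between 31.0 and 42.7 CPM, and enteroendocrine markers to between 319 and 463 CPM.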

Additional observations from a re-analysis of the deposited data

Results flagged for a closer look

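Among 36 sets of values (9 genes in 4 groups), 2 had a sample that stood far from the others, and chance flags about 1 in 20 such groups. Mga in m2 with HCl vehicle was at 108 CPM, where the other HCl samples lay between 103 and 104 CPM. Mxd3 in m4 with norepinephrine was at 3.47 CPM, where the other norepinephrine samples lay between 2.65 and 2.75 CPM.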

How the results depend on the processing

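With UK14,304 the number of the 9 genes called was 0 without the block and 2 with the replicate block, which pairs samples by m number. It was 1 in DESeq2 and 1 with no filter on low counts, Mycn in both. It was 2, Mycn and Mxd1, with the block in DESeq2, in a fit of only the compared groups, with the GC trend removed and with the split by ribosomal RNA share. Leaving out single samples or m numbers gave 0 to 2, and with norepinephrine also 0 to 2, where the 2 came without m4. For the difference between both effects and between the vehicles the number was 0 under all alternatives run. Between m numbers it was 3, and 2 with no filter or an adjusted p under 0.01.

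Of all tested genes, 6 were called with UK14,304 without the block, 186 with it, 22 with no filter, 1 in a fit of the compared groups, 525 in that fit with the block, 46 in DESeq2, 272 in DESeq2 with the block, 626 with the GC trend removed, 78 with the ribosomal RNA split and 2 at an adjusted p under 0.01. With norepinephrine 0 were called without the block, and with it 16, and 15, 34, 31 and 16 in the fit of compared groups, in DESeq2, with the GC trend removed and with the ribosomal RNA split. Without m4 and with the block there were 2300 with norepinephrine, 585 with UK14,304 and 12 for the difference between effects. For that difference, DESeq2 with the block called 1 in all 18 samples, and it was not run without m4. Leaving out other m numbers, with the block, gave 4 to 16 calls with norepinephrine and 23 to 174 with UK14,304. Leaving out single samples without the block gave 2 to 11 with UK14,304. At an adjusted p under 0.01, 1335 of 2110 calls between m numbers remained. The causes were not tested.

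Of 1170 alternative values of the genes' log2 fold changes, 1165 lay within 1 SD between replicates of the reported value. The 5 others were those of Myc (0.04 and 0.04) and Mnt (0.02 and 0.06) with norepinephrine and UK14,304 once the GC trend was removed, and that of Mxd3 for the difference between effects without m3 (-0.36). The SD includes differences between the sources, which are large for Mxd1. Over all settings Mxd1 ran from -0.49 to -0.19 with UK14,304, and from -0.33 to 0.00 for the difference between effects. Counting error limits Mxd3 and Mycn most.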
